A study of Arabidopsis thaliana with 4 samples.

Results

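Tetratricopeptide repeat (TPR)-like superfamily is the annotation that the deposited table gives to 268 of its 31346 Arabidopsis thaliana genes. The genes described here are the 254 of these with a sum of at least 10 counts over the 4 libraries, after 2 loci, AT5G48850 and AT1G04770, were set aside by name. The 12 other loci left out fell under the count minimum. Just outside it were AT5G10090 with a sum of 7 counts and AT3G63095 with 9, and just inside were AT1G63630 with 12 and AT5G28340 with 25. Those last 2 did not pass the filter on low counts, so that 252 of the 254 genes were tested.

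The RNA came from whole seedlings at 6 d of age, with 2 libraries from wild type (WT) and 2 from plants of the wild-type background with constitutive overexpression of CLPD, the gene of a chloroplast chaperone of the Clp protease (ClpD-OE). The libraries of ClpD-OE carry the same line number, #5, so that effects of overexpression and of anything else particular to the line cannot be told apart. Nothing in the labels states that the replicates were grown as separate cultures, so p-values here reflect how far these libraries spread, and that spread may be technical. In whole seedlings, fewer cells of a type and less RNA per cell cannot be told apart.

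Repeats of the TPR kind are pairs of antiparallel helices that stack into a curved scaffold and usually bind other proteins. Pentatricopeptide repeats (PPR) have a related fold but bind RNA one base per repeat, and most plant PPR proteins act in chloroplasts or mitochondria, where they guide RNA editing, splicing, cleavage and the protection of transcript ends. PPR genes form one of the largest plant gene families, and many lack introns and are weakly transcribed. Some PPR proteins end in a DYW domain, named after its last residues aspartate, tyrosine and tryptophan, which is the cytidine deaminase of organelle C-to-U editing.

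The TPR-like label covered both kinds of protein. In the RefSeq annotation of TAIR10.1, the domain note named a pentatricopeptide repeat for 167 of the 254 genes, only other domains for 62, and there was no domain note for 25. A search fixed in the analysis plan, for at least 4 matches to letters of a PPR helix in the protein, found 67 genes, but it also found only 40.2% of the 184 genes annotated as PPR superfamily and 0.0373% of proteins with other annotations. Since it missed most PPR proteins, the RefSeq note was used to divide the genes, a choice made after fold changes had been seen.

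Sequencing depth was 20800842 and 21896988 counts in WT and 23294451 and 22764333 counts in ClpD-OE. CLPD itself (AT5G51070, chromosome 5) had 2849 and 3037 counts in WT against 41739 and 46316 in ClpD-OE seedlings (edgeR log2 fold change 3.57, SE 0.0971, adjusted p = 0.00283). Green shoot markers were present at high counts. All 3 were called lower, LHCB2.1 by a log2 fold change of -1.24, LHCB1.3 by -0.64 and RBCS1A by -0.39. The root marker PYK10 had 23030 to 31823 counts and was not called. The meristem marker STM (73 to 94 counts) was low and not called, and the root marker EXP7 (0 to 2) was not tested. The root marker NRT2.1 had 25 and 28 counts in WT against 9 and 27 in ClpD-OE seedlings. After scaling to a common library size, both ClpD-OE libraries lay below both WT libraries. Its log2 fold change was -0.88 (SE 0.543, edgeR unadjusted p = 0.161, adjusted p = 0.350). The root marker CASP1 had 11 and 15 counts in WT against 26 and 48 in ClpD-OE seedlings, which did not overlap, with a log2 fold change of 1.17 (SE 0.446, edgeR unadjusted p = 0.0444, adjusted p = 0.165). The pollen markers VGD1 and VGDH1 and the seed storage gene CRU3 had 0 counts in every library, SESA1 0 to 12 and CRA1 2 to 9. The part of these marker levels in the results below was not tested.

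In ClpD-OE seedlings, edgeR called 49 of the 165 tested genes with a PPR domain higher and 0 lower. Of the 62 genes with other domains only, it called 2 higher and 4 lower. By sign alone, called or not, the log2 fold change was negative for 13 of the 165 and for 27 of the 62. The quasi-likelihood test of edgeR called 60 of the 252 tested genes higher and 4 lower, with a gene called at an adjusted p under 0.05 (Benjamini-Hochberg) over all 18940 genes tested. Over all genes tested, 4.29% were called higher and 3.91% lower. The median log2 fold change, ClpD-OE minus WT, was 0.51 for the 252 genes and 0.0011 over all tested genes. Its sign was positive for 209 of the 252. In 181 of them both ClpD-OE libraries lay above both WT libraries, a pattern seen in 30.5% of all tested genes. With DESeq2, 58 of 253 were called higher and 8 lower, against 4.96% and 6.1% of all genes. Of the 60 genes that edgeR called higher, 52 were among those that DESeq2 called higher.

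The 60 genes called higher rose by 1.49-fold to 6.89-fold, with a median log2 fold change of 1.29, and 45 of them rose at least 2-fold. Their adjusted p-values lay close together, between 0.0188 and 0.0497. In all 60, the ClpD-OE libraries did not overlap the WT libraries. With 2 libraries per group, a called gene is likely to have separate groups, so this adds nothing to the calls. Both ClpD-OE libraries lay above both WT libraries in 30.5% of all tested genes.

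By domain note, 49 of the 165 tested genes with a PPR domain were called higher and 0 lower, with a median log2 fold change of 0.81 and 152 positive values. DESeq2 also called 0 of the PPR-domain genes lower, and 2 were lower at an unadjusted p under 0.05 with either tool. Among the 62 genes with other domains only, 2 were called higher and 4 lower, and their median was 0.042. The 25 genes with no domain note had 9 called higher, 0 lower and a median of 0.61. By the search fixed in the plan, 20 of 66 genes with at least 4 letter matches and 40 of 186 others were called higher, with medians of 0.79 and 0.44. The 184 genes annotated as PPR superfamily, which are not among the 254, gave values like those of the PPR genes under the TPR-like label, with 43 of 181 called higher, 1 lower and a median of 0.74.

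**Figure D1:**
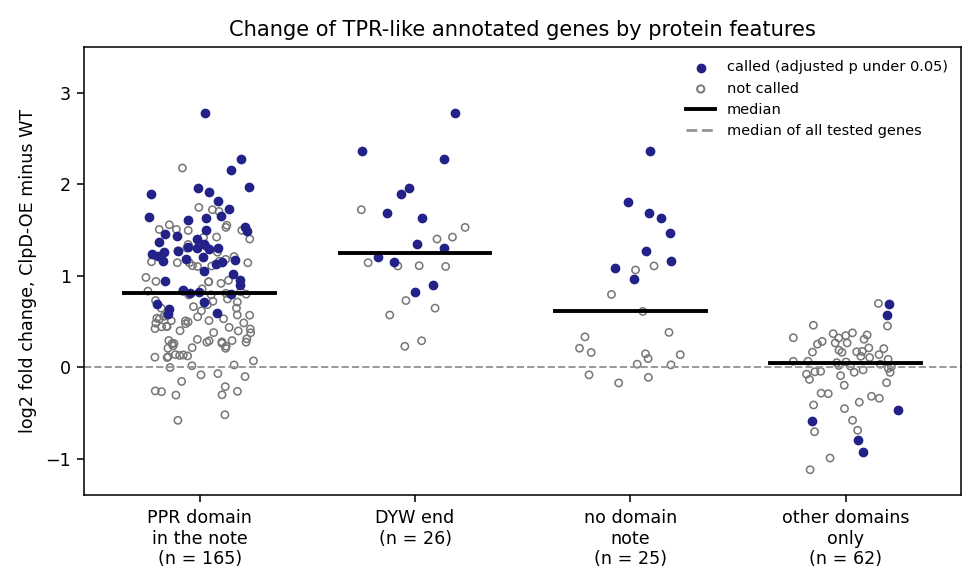
Log2 fold change, ClpD-OE minus WT (vertical axis), of tested genes by RefSeq domain note and by a DYW end, which crosses the note classes. Each point is a gene, filled where called, and black bars are medians. The medians are 0.81 with a PPR domain, 1.25 with a DYW end, 0.61 with no note and 0.042 with other domains only, and the dashed line is the median of all tested genes, 0.0011.

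The PPR genes under this label were weakly expressed. On the authors' per-length scale, the median level of tested genes was 1.95 FPKM with a PPR domain, 8.92 FPKM with other domains only and 8.76 FPKM over all genes tested. The genes were also divided by depth of measurement, in normalized CPM, which are counts scaled to a common library size. Of the tested PPR-domain genes, 129 had a mean under 10 CPM, with 37 called higher and a median log2 fold change of 0.95. The 36 with 10 CPM or more had 12 called higher and a median of 0.40. Among all tested genes under 10 CPM, 4.18% were called higher and the median was 0.042. The 18 genes with other domains and a mean under 10 CPM had 0 called by edgeR and a median of 0.062, with 2 higher and 1 lower at an unadjusted p under 0.05, and DESeq2 called 1 of them lower.

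**Figure D2:**
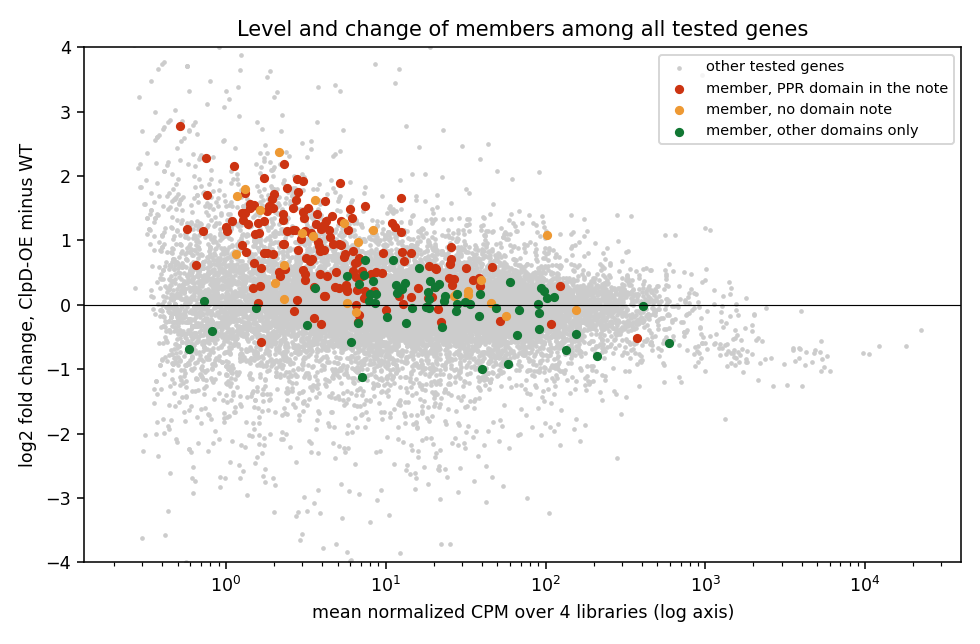
Mean normalized CPM over 4 libraries (horizontal log axis) against log2 fold change, ClpD-OE minus WT, for all tested genes, with the TPR-like genes coloured by domain note. Grey points are other tested genes, of which 49 lie beyond the plotted range of 4 log2 units either way. PPR genes lie mostly under 10 CPM and above 0, and genes with other domains lie around 0 at higher levels.

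Gene structure divided the genes in a similar way. A single coding exon was found in 140 of the genes, and 42 of these were called higher, 0 lower, with a median log2 fold change of 0.85. The 112 tested genes with more coding exons had 18 called higher, 4 lower and a median of 0.17. Within the PPR-domain genes, 37 of 124 with 1 coding exon and 12 of 41 with more were called higher, with medians of 0.93 and 0.44. Among all tested genes with 1 coding exon, 4.54% were called higher and the median was 0.014, and for those that were also under 10 CPM the values were 5.35% and 0.093.

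Counted together, the PPR-domain genes took 0.151% and 0.153% of all counts in WT 1 and WT 2 against 0.208% and 0.217% in ClpD-OE 1 and ClpD-OE 2. Summed normalized CPM of the same 167 genes were 1669 and 1623 in WT against 1933 and 1997 in ClpD-OE seedlings. Both ClpD-OE libraries were above both WT libraries on either scale. Within the summed CPM, AT1G07590 alone gave 516 and 369 in WT against 319 and 298 in ClpD-OE seedlings, the opposite direction to the sum. The genes with other domains took 0.317% and 0.311% of counts in WT against 0.312% and 0.317% in ClpD-OE seedlings, which overlap, while their summed normalized CPM were 3494 and 3303 against 2908 and 2918. The scales differ by the TMM factors, and the groups overlap on the first and not on the second. Within the summed CPM of the genes with other domains, AT4G28080 gave 777 and 645 in WT against 463 and 481 in ClpD-OE seedlings. AT2G29670 gave 266 and 269 against 158 and 151. The sums thus rest in large part on a few highly expressed genes.

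The genes whose protein ends in DYW had the highest median of the classes described. All 26 were tested, and all 26 had a positive log2 fold change, with a median of 1.25. Of the 26, 13 were called higher, beside 4.29% of all tested genes. Summed over the 26, the level was 77.1 and 95.9 normalized CPM in WT against 170 and 179 in ClpD-OE seedlings. In 25 of the 26 the ClpD-OE libraries were both above the WT libraries, the exception being AT5G65570 with 17, 42, 33 and 57 counts in WT 1, WT 2, ClpD-OE 1 and ClpD-OE 2. The same order was seen in 141 of the 165 tested PPR-domain genes and in 30.5% of all tested genes. PPR-domain genes without a DYW end had 38 of 142 called higher and a median of 0.72.

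The shared end of these proteins can be read in the coding sequence. The last 30 coding bases before the stop codon are given, from RefSeq TAIR10.1 and in the direction of the gene, for the 8 genes with a DYW end and the smallest p, with the codons of aspartate, tyrosine and tryptophan in capitals.
AT3G24000 (chr3:8674643-8674672, plus strand): gatggtaattgttcttgcaagGATTATTGG
AT4G02750 (chr4:1221119-1221148, minus strand): gatggttcatgttcttgtggaGACTACTGG
EMB2261 (chr3:18226957-18226986, minus strand): gatgggaaatgttcttgtaatGATTATTGG
AT3G26782 (chr3:9852650-9852679, plus strand): gatggtggatgttcctgtggaGATTACTGG
AT2G15690 (chr2:6831858-6831887, minus strand): gacggtaaatgttcttgcgggGATTACTGG
OTP84 (chr3:21255734-21255763, minus strand): aatggaacttgctcctgtggaGACTATTGG
OTP82 (chr1:2514377-2514406, minus strand): gatggtgtttgttcctgcaatGACTACTGG
AT4G16835 (chr4:9474771-9474800, plus strand): gatgggtcttgctcttgtggcGATTACTGG
The codons vary between genes, while the 3 residues are the same because a DYW end was required. All 8 genes were called higher, which follows from their choice by the smallest p.

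The largest rises named by the rule were those of 8 genes, 7 of them with a single coding exon. OTP82 (AT1G08070), a DYW protein needed to edit chloroplast ndhB and ndhG transcripts, had 18 and 9 counts in WT against 104 and 74 in ClpD-OE seedlings. The ClpD-OE libraries lay well above the WT libraries, although the counts are small. Its level rose from 0.695 ± 0.367 to 3.57 ± 0.827 normalized CPM (mean with SD, n = 2 in each group, WT first), a log2 fold change of 2.37 (SE 0.414, edgeR adjusted p = 0.0375).

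AT3G01580, with a PPR domain, had 6 and 10 counts in WT against 42 and 49 in ClpD-OE seedlings, and rose by a log2 fold change of 2.16 (SE 0.371, edgeR adjusted p = 0.0357). AT1G13410, a PPR gene with 2 coding exons, had 8 and 20 counts against 65 and 73 (log2 fold change 1.97, SE 0.403, adjusted p = 0.0491). The WT libraries of AT1G13410 differed from each other by more than 2-fold, and both were below ClpD-OE. AT4G35130 had 17 and 33 counts in WT against 135 and 103 in ClpD-OE seedlings, with a log2 fold change of 1.92 (SE 0.328, adjusted p = 0.0355). AT2G36980, which has no domain note, had 12 and 11 counts against 47 and 55 (log2 fold change 1.80, SE 0.318, adjusted p = 0.0378). These 4 genes have no annotated role.

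AT4G02750, which has a DYW end and is placed in the mitochondrion by its note, had 21 and 24 counts in WT against 124 and 97 in ClpD-OE seedlings (log2 fold change 1.96, SE 0.246, edgeR adjusted p = 0.0239). AT3G24000, also with a DYW end, had 43 and 44 counts against 197 and 211 (log2 fold change 1.89, SE 0.170, adjusted p = 0.0188). In both genes the WT libraries were nearly alike. AT5G40405 had 22 and 20 counts in WT against 107 and 81 in ClpD-OE seedlings, with a log2 fold change of 1.82 (SE 0.274, adjusted p = 0.0292). Its neighbour AT5G40410, a DYW gene under the level set for naming, had 3 and 7 counts against 31 and 31 and was called as well. This was 1 of 2 pairs of TPR-like genes that are neighbours among protein-coding genes, and the other, AT3G13150 and AT3G13160, was also called higher for both genes, with log2 fold changes of 1.37 and 1.28.

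**Figure D3:**
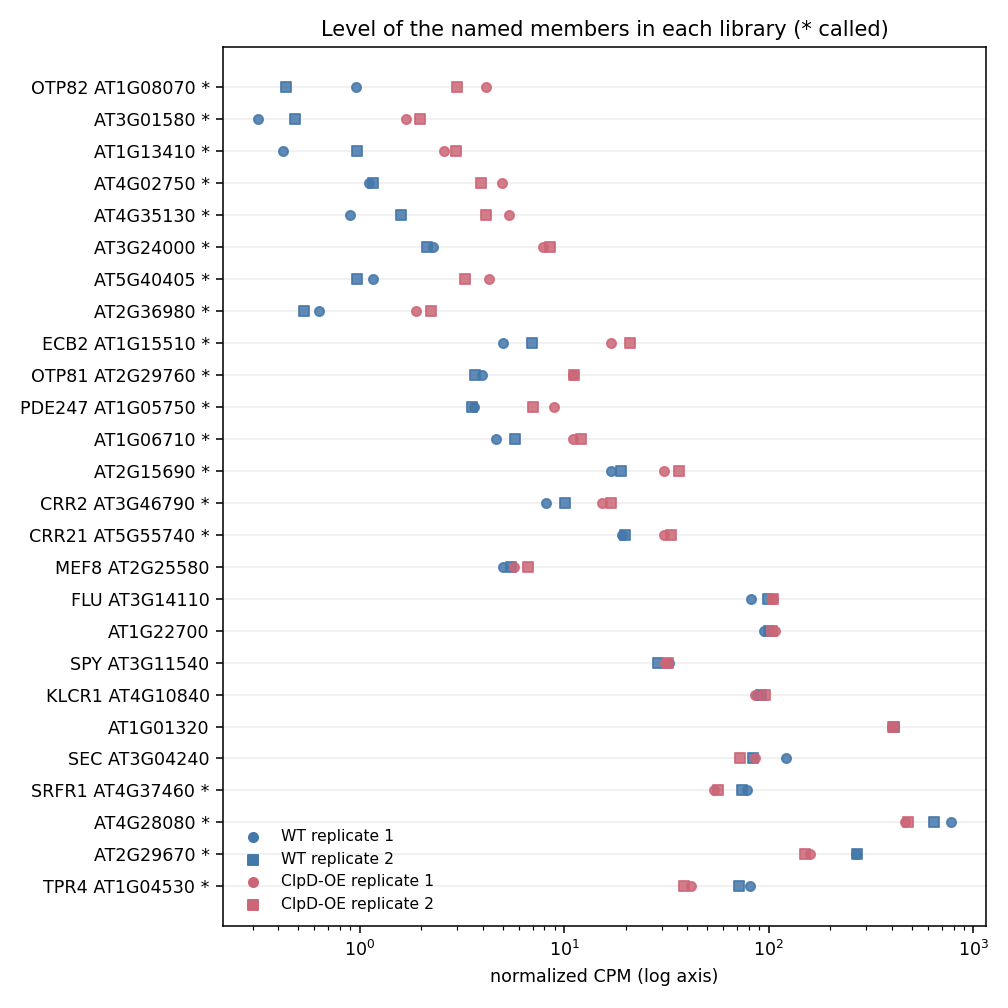
Normalized CPM (horizontal log axis) in each of the 4 libraries for the named genes that rose or fell most or have a listed role, ordered by log2 fold change. Blue marks are WT and red marks ClpD-OE, circles replicate 1 and squares replicate 2, and an asterisk marks a called gene. The red marks lie to the right of the blue ones for the called PPR genes at the top and to the left for the 4 genes called lower at the bottom.

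Genes called higher that the rule did not name were chosen for mention after their values were seen. AT5G39350, with a PPR domain, had 60 and 64 counts in WT against 215 and 224 in ClpD-OE seedlings (log2 fold change 1.49, SE 0.154, edgeR adjusted p = 0.0193). AT3G13160 had 129 and 122 against 386 and 382, and in both genes the libraries of a group were close to each other. EMB2261, a DYW gene named for a defect in the embryo, had 61 and 75 counts against 236 and 202, with a log2 fold change of 1.35. SLG1 (AT5G08490), which lacks a domain note and is known to act in mitochondrial RNA editing, had 14 and 20 counts against 60 and 59 (log2 fold change 1.47, SE 0.283, adjusted p = 0.0444), and DESeq2 did not call it (adjusted p = 0.0564).

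At the lower end of the calls, AT3G59040 and AT1G60770, both with a PPR domain, had log2 fold changes of 0.59 and 0.60. AT3G59040 was among the better measured genes, with 639 and 817 counts in WT against 1416 and 1333 in ClpD-OE seedlings. AT1G60770 had 276 and 312 against 592 and 529. The largest fitted change, of AT4G15720, rests on 2 and 3 counts in WT against 24 and 21, and DESeq2 did not call it (adjusted p = 0.0592). Of the 13 DYW genes not called, AT1G16480 was nearest to the threshold with 30 and 29 counts against 91 and 74 (log2 fold change 1.14, edgeR adjusted p = 0.0533).

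Editing factors of the chloroplast had the most calls among the role lists of TPR-like genes. Of 9 tested genes, 6 were called higher and 0 lower, beside 4.29% and 3.91% of all tested genes. All 9 values were positive and the median log2 fold change was 1.16. The lists were written from known roles and hold the genes whose name or note RefSeq gives. They were chosen with earlier results of these data known.

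OTP81 (AT2G29760), needed for editing at several chloroplast sites, had 75 and 76 counts in WT against 275 and 277 in ClpD-OE seedlings. The replicates were nearly identical, and ClpD-OE was higher by 2.89-fold (edgeR log2 fold change 1.53, SE 0.144, adjusted p = 0.0188). ECB2 (AT1G15510), required for editing of accD transcripts and for early chloroplast biogenesis, had 95 and 144 counts in WT against 425 and 520 in ClpD-OE seedlings. It rose by a log2 fold change of 1.66 (SE 0.207, adjusted p = 0.0237), and its levels were 6.01 ± 1.37 and 19.0 ± 2.83 normalized CPM.

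CLB19 (AT1G05750), which RefSeq lists under the symbol PDE247 and which is needed to edit rpoA and clpP transcripts of the chloroplast, had 68 and 73 counts against 224 and 174 (log2 fold change 1.16, SE 0.190, edgeR adjusted p = 0.0328). OTP84 (AT3G57430), a DYW factor for psbZ, ndhB and ndhF sites, had 112 and 164 counts against 391 and 407 (log2 fold change 1.20, SE 0.172, adjusted p = 0.0272). CRR21 (AT5G55740), which acts on an ndhD site, had the highest per-length level of the 6, at 9.57 FPKM, with 360 and 410 counts in WT against 767 and 822 in ClpD-OE seedlings. Its rise was smaller, at 1.64-fold (log2 fold change 0.71, SE 0.101, adjusted p = 0.0272). For all these factors the groups were separate. CRR28, OTP86 and OTP80 were not called, with log2 fold changes of 0.73, 0.50 and 0.83 and adjusted p-values of 0.0571, 0.0918 and 0.150.

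Of the mitochondrial editing factors, MEF25 and MEF7 were measured at low counts. MEF25 had 5 and 9 counts in WT against 33 and 25 in ClpD-OE seedlings, with a log2 fold change of 1.71 (SE 0.436, edgeR adjusted p = 0.0773), and MEF7 had 13 and 12 against 28 and 42 (log2 fold change 1.14, adjusted p = 0.133). MEF8 (AT2G25580), a DYW protein, had 95 and 113 counts against 142 and 165. After normalization its groups were close, at 5.26 ± 0.308 and 6.17 ± 0.697 CPM, and its log2 fold change was 0.23 (SE 0.169, adjusted p = 0.432). None of these 3 was called by edgeR or DESeq2. With edgeR the unadjusted p of MEF25 and MEF7, 2 of the 3, was under 0.05. The median log2 fold change of the 3 was 1.14. SLG1, a mitochondrial editing gene called higher by edgeR, was not in this list, so the list does not hold every such gene. AT2G15690, a DYW gene with no annotated name, was counted in none of the role lists, and no organelle is given for it here. It had 319 and 390 counts in WT against 771 and 897 in ClpD-OE seedlings. It was called higher, with a log2 fold change of 0.90 (SE 0.129, edgeR adjusted p = 0.0272).

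A further list held factors of chloroplast RNA processing and stability. Of 7 tested genes 1 was called higher and 0 lower, beside 4.29% and 3.91% of all tested genes. All 7 values were positive and the median log2 fold change was 0.40. CRR2 (AT3G46790), a DYW protein needed for cleavage between rps7 and ndhB, had 154 and 208 counts in WT against 383 and 421 in ClpD-OE seedlings (log2 fold change 0.82, SE 0.153, edgeR adjusted p = 0.0413). OTP70 had a log2 fold change of 0.83 and an adjusted p of 0.0607, and HCF152, which acts on petB transcripts, 0.40 and 0.0661. EMB2654, DG1, PPR2 and EMB2453 lay between 0.28 and 0.42 and were not called.

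Among 3 factors of mitochondrial RNA processing, MTSF1 (AT1G06710), which protects the end of nad4 transcripts, had 87 and 118 counts in WT against 276 and 299 in ClpD-OE seedlings. It rose by 2.23-fold (edgeR log2 fold change 1.16, SE 0.166, adjusted p = 0.0272). RPF3 and RPF6, which act in processing the ends of mitochondrial transcripts, had log2 fold changes of 0.28 and 0.12 and adjusted p-values of 0.387 and 0.516. RPF3 has a copy with at least 95% identity in the genome, and its reads may be shared. By the place given in the RefSeq note, 9 of 23 genes assigned to the mitochondrion and 7 of 37 assigned to the chloroplast were called higher, with medians of 0.60 and 0.31. Over all tested genes, the share called higher was 4.29%. The note gave no place for 143 of the 254 genes, of which 142 were tested, 40 called higher, and the median was 0.79.

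**Figure D4:**
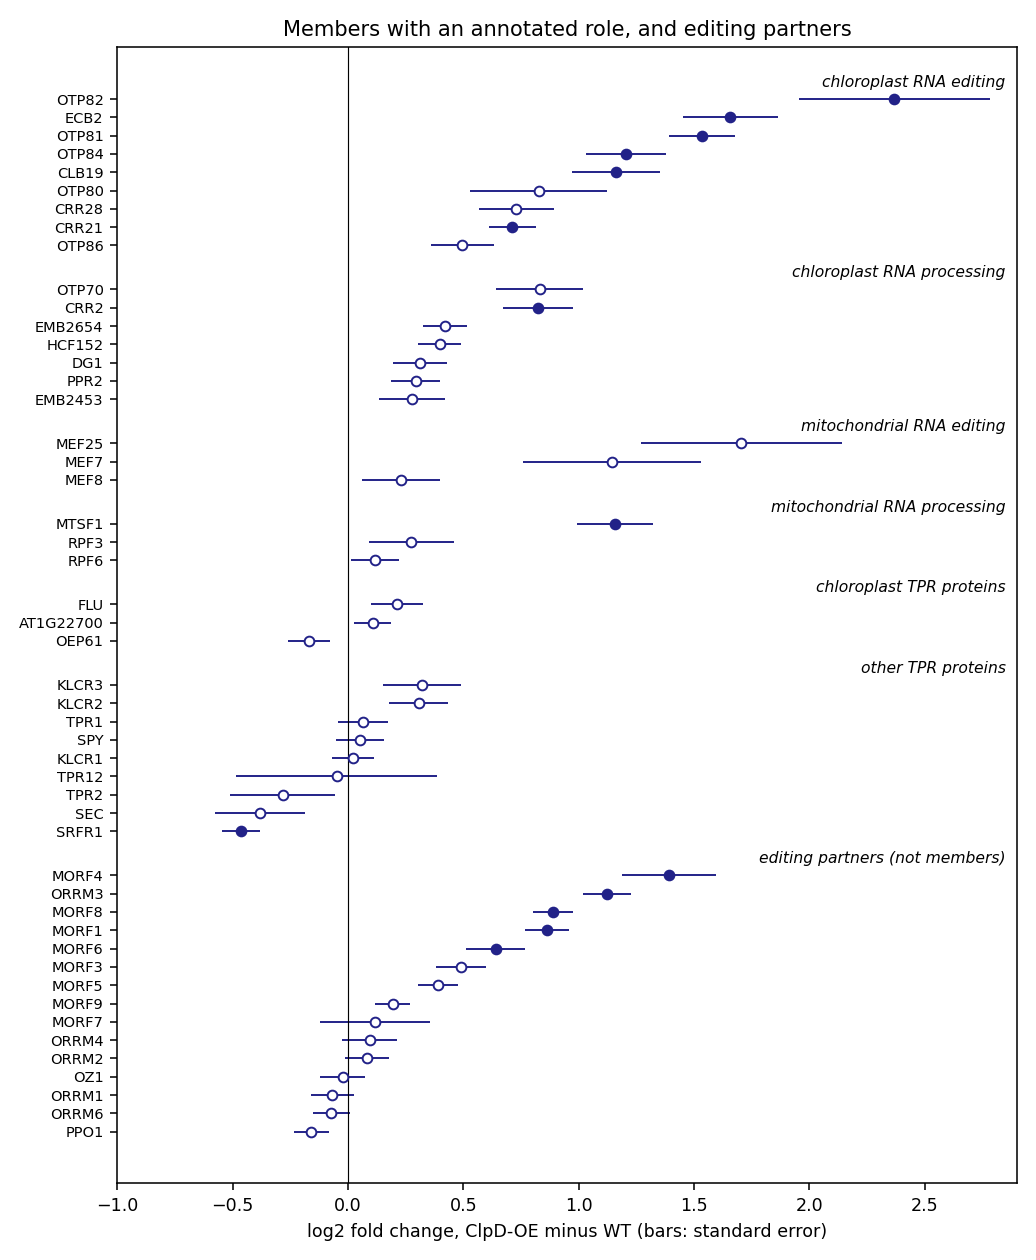
Log2 fold change, ClpD-OE minus WT, with its standard error as a bar, for TPR-like genes in the role lists and for editing partners that are not TPR-like genes. Filled points were called. The 6 filled points of chloroplast editing lie between 0.71 and 2.37, and the only filled point below 0 is SRFR1.

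The genes with other domains only were set apart by a note without a PPR domain, and a TPR domain was not looked for. The 4 genes that edgeR called lower were all among them. DESeq2 called 8 lower, also all in this class. TPR4 (AT1G04530) had 1524 and 1471 counts in WT against 1039 and 956 in ClpD-OE seedlings. Its level fell from 76.0 ± 6.76 to 40.1 ± 2.07 normalized CPM, a log2 fold change of -0.92 (SE 0.101, edgeR adjusted p = 0.0194). AT2G29670, placed in the chloroplast by its note, had 5010 and 5552 counts against 3956 and 3740 (log2 fold change -0.79, SE 0.0773, adjusted p = 0.0190). In both genes the ClpD-OE counts were lower than the WT counts before and after normalization. The coding sequence most like that of AT2G29670 was AT3G47080, with 76.5% of bases shared over 332. AT3G47080 was not among the edgeR calls, but the authors' table gives it as lower at a false discovery rate under 0.05. The authors' log2 fold changes were -0.76 for AT3G47080 and -0.57 for AT2G29670.

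AT4G28080, a large protein of 1819 residues, had 14654 and 13320 counts in WT against 11578 and 11910 in ClpD-OE seedlings (log2 fold change -0.59, SE 0.111, edgeR adjusted p = 0.0420). The paralogue most like it, AT1G01320, was not called, with 406 ± 6.53 and 403 ± 2.47 normalized CPM and a log2 fold change of -0.011 (SE 0.0732). The coding sequences share 78.0% of bases in their longest match. SRFR1 (AT4G37460), a negative regulator of immune responses, had 1478 and 1532 counts against 1355 and 1399, and was called lower with a log2 fold change of -0.46 (SE 0.082, adjusted p = 0.0383). The calls of AT4G28080 and SRFR1 were lost when library totals were used in place of TMM factors.

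The 2 genes with other domains called higher were AT2G31240, with 156 and 180 counts in WT against 356 and 328 in ClpD-OE seedlings, and AT2G37400, with 238 and 278 against 474 and 492. Their log2 fold changes were 0.69 and 0.57. They are named here after their values were seen.

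Other well known TPR proteins were not called. FLU (AT3G14110), the negative regulator of chlorophyll precursor synthesis in the thylakoid membrane, had a normalized CPM of 90.5 ± 11.9 in WT and of 105 ± 0.00878 in ClpD-OE (log2 fold change 0.21, SE 0.112, edgeR adjusted p = 0.283). AT1G22700, whose note names assembly of photosystem I, had 97.9 ± 3.84 and 105 ± 2.43 (log2 fold change 0.11, adjusted p = 0.443). OEP61, a TPR protein of the chloroplast outer envelope, had a log2 fold change of -0.17 and an adjusted p of 0.295. None of these 3 was called by edgeR or DESeq2 or was higher at an unadjusted p under 0.05.

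SPY (AT3G11540), the O-fucosyltransferase that restrains gibberellin responses, had 30.6 ± 2.60 and 31.7 ± 0.794 normalized CPM, and its libraries overlapped between groups. SEC (AT3G04240), the related O-linked N-acetylglucosamine transferase, had 103 ± 27.0 and 78.9 ± 9.07 (log2 fold change -0.38, SE 0.197, edgeR adjusted p = 0.275). Its WT libraries stood apart, at 2299 and 1730 counts. KLCR1 (AT4G10840), a kinesin light chain-related protein, had 89.4 ± 2.99 and 90.6 ± 6.84 normalized CPM, and KLCR2 and KLCR3 had log2 fold changes of 0.31 and 0.32 with adjusted p-values of 0.197 and 0.283. Of the 9 genes in this list, edgeR and DESeq2 called 0 higher, 0 were higher at an unadjusted p under 0.05, and 1, SRFR1, was called lower.

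By the authors' FPKM values, the genes with the highest mean were AT5G53490 (160 FPKM) and AT1G07590 (154 FPKM). AT5G53490 had a normalized CPM of 160 ± 21.3 in WT and of 151 ± 10.3 in ClpD-OE and was not called. AT1G07590, a PPR-domain gene placed in the mitochondrion, had 9734 and 7623 counts in WT against 7991 and 7390 in ClpD-OE seedlings. Its normalized level was 443 ± 104 and 309 ± 14.9 CPM, with a log2 fold change of -0.52 (SE 0.169, edgeR adjusted p = 0.124). Most other PPR-domain genes had a positive sign. Exons of AT1G07590 overlap AT1G07600 on the same strand, so that some of its reads may belong to that gene. Its level and change are therefore uncertain.

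Proteins that work with PPR factors but carry another annotation were followed as a fixed list. Of 15 editing partners, 5 were called higher and 0 lower, beside 4.29% and 3.91% of all tested genes. The median log2 fold change of the 15 was 0.19. MORF8, a partner of editing factors in both organelles, had 1837 and 2194 counts in WT against 4681 and 4709 in ClpD-OE seedlings (log2 fold change 0.89, SE 0.0849, edgeR adjusted p = 0.0188). ORRM3 (1.12), MORF1 (0.86), MORF4 (1.39) and MORF6 (0.64), which act in mitochondria, were the other partners called, with log2 fold changes as given. The chloroplast partners MORF9 (0.19) and ORRM1 (-0.07) were not called. Neither were MORF3 (0.49), MORF5 (0.39), MORF7 (0.12), ORRM2 (0.08), ORRM4 (0.09), ORRM6 (-0.07), OZ1 (-0.02) and PPO1 (-0.16). Whether the change of partners differs by organelle was not tested.

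Of 19 other organelle RNA factors, 6 were called higher and 2 lower, beside 4.29% and 3.91% of all tested genes. Those higher were the chloroplast splicing factors WTF1 (log2 fold change 1.11) and CAF1 (0.82), the chloroplast nucleases RNJ (1.42) and RNE (0.49), and the polynucleotide phosphorylases RIF10 (0.47) of chloroplasts and mtPNPase (1.46) of mitochondria. CSP41A (-0.38) and CSP41B (-0.59), abundant chloroplast RNA-binding proteins, were the 2 called lower.

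Upstream sequences were searched on both strands, from 250 bases before to 50 bases after the gene start of RefSeq TAIR10.1, for the site II element TGGGCC or TGGGCT and the telo box AAACCCTAA, which are common before plant genes of organelle and ribosome function. A site II element was found for 34.3% of the 254 genes and 21.7% of all 27443 protein-coding genes of the table. The 254 genes had to pass a count minimum, while the protein-coding genes were taken whatever their counts. A telo box was found for 7.48% and 3.60%. Among the 60 genes called higher, 23.3% held a site II element and 13.3%, or 8 genes, a telo box. A match is a description and does not show that a factor binds.

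The 250 bases before the gene start are shown, in the direction of the gene, for the 3 genes called higher with the smallest p among those with at least 2 matches in a window that lies in no other gene, with the matches in capitals. AT3G15590, a PPR gene with 366 and 417 counts in WT against 761 and 768 in ClpD-OE seedlings, holds a telo box on the reverse strand at -157 and at -65 from the gene start. OTP82 holds site II elements at -101 and -70, and CRR2 at -131, -106 and -89.
AT3G15590 (chr3:5278020-5278269, minus strand): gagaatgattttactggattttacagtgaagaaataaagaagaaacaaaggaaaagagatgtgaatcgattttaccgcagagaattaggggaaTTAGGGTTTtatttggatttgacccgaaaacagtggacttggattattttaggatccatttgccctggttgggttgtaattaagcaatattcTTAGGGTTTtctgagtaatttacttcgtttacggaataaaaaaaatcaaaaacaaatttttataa
OTP82 (chr1:2516621-2516870, minus strand): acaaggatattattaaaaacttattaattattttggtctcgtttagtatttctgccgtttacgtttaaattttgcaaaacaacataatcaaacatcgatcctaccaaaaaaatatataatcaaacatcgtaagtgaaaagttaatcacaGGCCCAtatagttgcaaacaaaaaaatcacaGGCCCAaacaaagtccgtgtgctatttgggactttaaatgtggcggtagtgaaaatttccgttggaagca
CRR2 (chr3:17234046-17234295, minus strand): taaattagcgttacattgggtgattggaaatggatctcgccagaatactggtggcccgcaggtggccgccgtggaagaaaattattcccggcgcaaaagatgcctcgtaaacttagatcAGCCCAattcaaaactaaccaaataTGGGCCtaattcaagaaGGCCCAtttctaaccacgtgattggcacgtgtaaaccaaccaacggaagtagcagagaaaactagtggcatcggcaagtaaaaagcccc
In OTP82 both matches are on the reverse strand, and in CRR2 the match at -106 is on the strand of the gene.

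The WT libraries differed from each other in the same genes. The median log2 difference of WT 2 minus WT 1 was 0.16 over PPR-domain genes, 0.0033 over genes with other domains and -0.0017 over all tested genes, so that WT 2 lay nearer to ClpD-OE. Between the ClpD-OE libraries the median difference of PPR-domain genes was 0.043. Without WT 1 the median log2 fold change of PPR-domain genes was 0.69, and without WT 2 it was 0.90. Without ClpD-OE 1 or ClpD-OE 2 it was 0.80 or 0.77. The direction of the PPR-domain median was thus the same with each library left out.

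**Figure D5:**
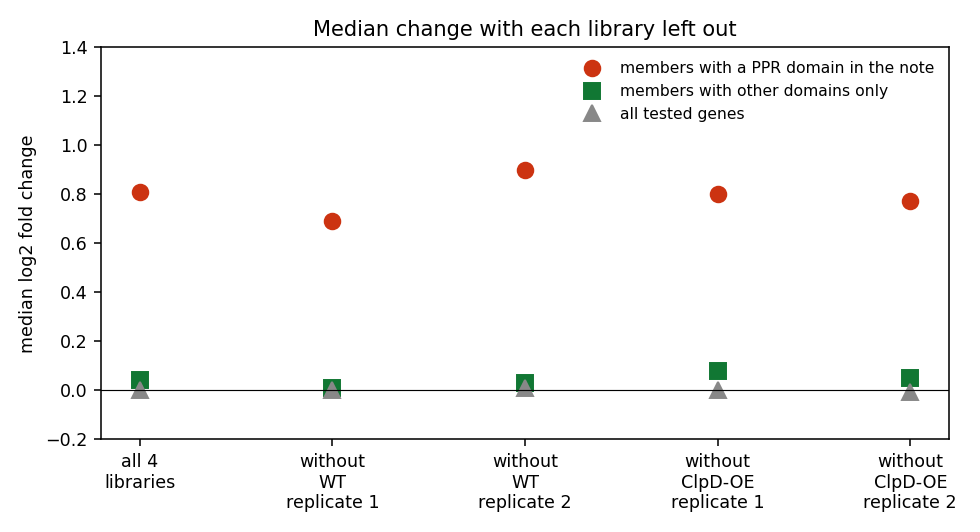
Median log2 fold change, ClpD-OE minus WT, with all 4 libraries and with each library left out in turn. Red circles are PPR-domain genes (0.69 to 0.90), green squares genes with other domains only (0.0075 to 0.077) and grey triangles all tested genes.

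Calls of single genes depended on the libraries. Without WT 1, edgeR called 7 of the TPR-like genes higher, all of them among the 60, and without WT 2 it called 64, of which 40 were among the 60. Over all tested genes, 1.06% and 6.07% were called higher in those fits. Without either ClpD-OE library, edgeR called 0 genes in the whole table, while 98 and 88 of the TPR-like genes were higher and 8 and 8 lower at an unadjusted p under 0.05. These are 38.9% and 34.9% higher, against 8.51% and 7.93% of all tested genes, and 3.17% lower in both, against 10.2% and 7.81%. DESeq2, added after these counts had been seen, called 7, 21, 3 and 2 of the genes higher without WT 1, WT 2, ClpD-OE 1 and ClpD-OE 2. These were 2.77%, 8.37%, 1.23% and 0.935% of the TPR-like genes in each fit, against 1.15%, 3.34%, 0.768% and 0.704% of all genes, so that without a ClpD-OE library the share called was near that of all genes. ECB2 and AT4G32340, which has no domain note and had 1022 and 1590 counts against 3266 and 3663, were called in all 4 of these DESeq2 fits.

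Reads can be shared between genes in 2 ways. A copy with at least 95% identity over at least 100 bases was found for 7 of the 254 genes, of which 1, AT3G28660, was called higher, and its value is uncertain. Exons of 88 genes overlap another gene, in 73 cases one on the other strand, and whether counting used strand is not stated in these sources. Of the tested genes with such an overlap 23 of 87 were called higher, and of those without 37 of 165. OTP81, CLB19, MTSF1, AT2G15690, AT4G28080, FLU, AT1G22700 and AT1G01320 overlap a gene on the other strand, so that reads from the overlapping part may be shared with that gene if counting did not use strand. AT1G07590 and AT4G02750 overlap a gene on the same strand, AT1G07600 and AT4G02740, where use of strand would not separate the reads. The authors' deposited table gives 54 of the 254 genes as higher and 8 as lower at a false discovery rate under 0.05, and 927 and 1127 of all genes.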

How the data were processed

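Poly(A)-selected RNA was sequenced on an Illumina HiSeq instrument, per the labels' protocols. The submitters' processing notes name RSEM, HISAT2, DESeq2, Bowtie2 2.2.8, StringTie 1.3.1 and fastp 0.18.0 with the build TAIR10, in no stated order. The authors deposited 1 table with estimated counts, which are whole numbers, and FPKM values per gene. Its log2 fold change, p-value and false discovery rate are the authors'. They served only for a count and for AT3G47080 beside AT2G29670. No header names the tool behind the p-value.

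The test was edgeR 4.0.16, run in R 4.3.3 (TMM, filterByExpr, glmQLFit and glmQLFTest, genotype only), and genes were called at an adjusted p under 0.05 over all tested genes. The 4 TMM factors ran from 0.907 to 1.09, lowest in WT, and the biological coefficient of variation was 0.140. SE is the size of the log2 fold change over the square root of F. Differences between libraries used log2 of CPM plus 0.5. Counts of replicates differed by more than sampling noise (chi-square per degree of freedom 18.6 for WT and 10.2 for ClpD-OE). On simulated data with 18764 genes of this comparison, the test recovered 17.9% of genes changed 1.5-fold, 77.6% of those changed 2-fold and 98.5% of those changed 4-fold. Unchanged genes made up 5 of its 134 calls.

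All 31346 loci matched RefSeq TAIR10.1, which gave names, domain notes, exons and sequences with their coordinates. The authors' table has no coordinates and its build is named TAIR10. Members, role lists and alternatives were chosen with earlier results of these data known. The domain classes, the limit of role lists to genes with an annotated name or note, the DESeq2 fits with a library left out and the sequences shown were chosen after values had been seen. Genes were named by rule, as the 8 largest rises and up to 8 largest falls among called genes of at least 1 CPM with separate groups, up to 3 called genes with the smallest p per list, 15 genes of known role where present, and the 5 with the highest FPKM. Others named were chosen after their values were seen. The alternatives were other scalings and filters, DESeq2 1.42.0, another quasi-likelihood version, the replicate number as a block, each library left out, motifs on 1 strand and other minimums of letter matches. Of the role lists, the one for factors that edit in both organelles had 0 usable genes, since 1 TPR-like gene on it lacked an annotated name or note.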

Additional observations from a re-analysis of the deposited data

How the results depend on the processing

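With library totals in place of TMM factors, the median over all tested genes moved from 0.0011 to 0.23 and that of the TPR-like genes from 0.51 to 0.74. Against that shift, 116 genes were called higher and 2 lower (46.0% and 0.794%, against 14.3% and 3.05% of all genes), with 96 higher among PPR-domain genes, 9 higher and 2 lower among genes with other domains, 40 and 76 higher with and without 4 letter matches, and 16 higher over the role lists. AT1G01320 (0.21) and AT5G53490 (0.14) then changed sign. The replicate numbers are not stated to pair the samples. The deviations of same-numbered libraries had a correlation of 0.293 across genes, and with the replicate block 99 genes were called higher and 9 lower, 39.3% and 3.57% against 8.60% and 9.95% of all genes (84 higher with a PPR domain, 8 lower with other domains, 37 and 62 higher with and without 4 letter matches). DESeq2 called 8 lower, all with other domains. With no filter the median of all genes was 0.0098.

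Without 1 WT library edgeR called 7 to 64 genes higher and 2 to 9 lower, and DESeq2 7 to 21 and 2 to 6. Without 1 ClpD-OE library edgeR called 0 genes, and DESeq2 2 to 3 higher and 0 to 4 lower. Higher calls without a WT library were, for edgeR and DESeq2, 6 to 54 and 5 to 18 among PPR-domain genes, 0 to 3 and 0 with other domains (lower 2 to 8 and 2 to 5), 2 to 25 and 3 to 10 with 4 letter matches, 5 to 39 and 4 to 11 without, and 3 to 8 and 3 to 4 over the role lists. Without a ClpD-OE library DESeq2 called 1 to 2 PPR-domain genes, 1 with 4 letter matches, 1 to 2 without and 1 of the role lists higher, and 0 higher and 0 to 4 lower with other domains. The all-gene median then was 0.0033 to 0.011 (edgeR) and 0.015 to 0.021 (DESeq2) without a WT library, and -0.0058 to 0.00057 and -0.0066 to -0.0046 without a ClpD-OE library. Log2 fold changes near 0 changed sign, those of AT1G01320 (-0.029 to 0.0042), SPY (-0.035 to 0.14, DESeq2 -0.040 to 0.14) and AT5G53490 (-0.21 to 0.059, DESeq2 -0.22 to 0.054) between the WT libraries left out, and that of KLCR1 between the WT libraries (-0.015 to 0.054, DESeq2 -0.016 to 0.049) and the ClpD-OE libraries (-0.059 to 0.096, DESeq2 -0.059 to 0.091). The cause was not tested, and fewer samples leave fewer degrees of freedom, with the lone library assumed to vary like the other group. With at least 2 letter matches 42 of 130 genes were called higher against 18 of 122 others, and with at least 6 it was 4 of 20 against 56 of 232, the order opposite to that at 4 matches. On the gene's strand alone, 24.8% held a site II element and 3.15% a telo box, against 14.3% and 2.14% of all protein-coding genes, and of the 60 genes called higher 8.33% and 5.00% did. Most PPR genes have few counts, which limits the precision of each fold change.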
